A study of Mus musculus with 9 samples.

Results

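The metallothionein genes and the genes that carry zinc into and out of liver cells were examined in mouse liver after doxycycline (Dox) or tetracycline (Tc). Tetracyclines bind metal ions, and 8 genes were chosen by name for that reason: the metallothioneins Mt1 and Mt2, the exporters Slc30a1 and Slc30a10, the importers Slc39a4, Slc39a14 and Slc39a8, and the transcription factor gene Mtf1. All 8 were among the 32285 genes of the table, and all 8 were among the 12100 genes tested, whose normalized counts averaged 10 or more.

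RNA sequencing was performed on liver of Tet-OFF mice in 3 groups of 3 libraries each. Mice of every group carried a piggyBac CAG-CreERT2 allele, with loxP-stop-loxP-tTA and tetO-Venus-ires-mCherry inserted in Rosa26, and every group received tamoxifen, which excises the stop cassette. The CAG promoter drives CreERT2 in most cell types, so the liver libraries mix recombined cells of many kinds. The mice were 4 weeks old, and the study describes those treated with Dox or Tc as male. Control mice received tamoxifen only, while Dox mice and Tc mice also drank Dox hyclate or Tc hydrochloride at 2 mg/mL in water with 10 mg/mL sucrose over 7 days. Whether controls drank sucrose was not stated. Since either drug also shuts off the Venus and mCherry reporter, drug exposure and reporter state cannot be told apart in a comparison with controls.

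Metallothioneins are small cysteine-rich proteins that hold zinc and copper ions, and the liver is a main site of their synthesis. When free zinc rises, the zinc finger factor MTF1 binds metal response elements in the promoters of Mt1, Mt2 and Slc30a1 and raises their transcription, so these transcripts are widely read as a sign of cellular zinc. Glucocorticoids and the cytokine interleukin-6 also induce Mt1 and Mt2 in hepatocytes, and interleukin-6 induces the importer Slc39a14. Proteins of the SLC30 family move zinc out of the cytosol, and those of the SLC39 family move it in.

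Reads counted on genes, recovered from the normalized counts, ranged from 7426136 to 12183041 per library. Albumin and the other hepatocyte markers were high in every library, with a summed normalized count of 8 markers from 1120790 to 1592339 in controls, 534154 to 855231 in Dox and 835743 to 1274342 in Tc. The Dox sums were all below the control sums, with Dox 2 the lowest of the 9, and the part of this difference in the levels of the zinc genes was not tested. Library 3 of each group lay close to a weighted sum of libraries 1 and 2 of that group, with weights of 58.4% and 41.7% in control, 61.3% and 34.5% in Dox and 61.2% and 36.9% in Tc. For genes more than 2-fold apart between libraries 1 and 2, library 3 lay between them in 501 of 586 control, 4139 of 4264 Dox and 962 of 1022 Tc genes. For the zinc genes, counted without that 2-fold limit, library 3 lay between them in 21 of 24 gene and group pairs. If libraries 3 are not livers of their own, the p-values of fits to all 9 are smaller than they should be, so fits on libraries 1 and 2 alone are given beside them. The study describes the 3 libraries of a group as biological replicates, while the labels do not name the animals, and the p-values measure the spread between these libraries.

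For the members that results turn on, the bases just before the RefSeq start are shown first. Mt1 and Mt2 varied together, and the metal response element is the sequence through which zinc acts on them. Sequences are those of RefSeq on GRCm38.p6, 5′ to 3′ on the plus strand, which is the gene's strand for each, and end before the transcription start. Capitals mark the metal response element core, searched as TGCACNC and TGCGCNC on both strands. In Slc30a10, 1 core on each strand overlap and form a single capital run. They lie at chr8:94178839-94179081 for Mt1, chr8:94172368-94172617 for Mt2, chr1:191906531-191906766 for Slc30a1 and chr1:185454598-185454847 for Slc30a10.
Mt1: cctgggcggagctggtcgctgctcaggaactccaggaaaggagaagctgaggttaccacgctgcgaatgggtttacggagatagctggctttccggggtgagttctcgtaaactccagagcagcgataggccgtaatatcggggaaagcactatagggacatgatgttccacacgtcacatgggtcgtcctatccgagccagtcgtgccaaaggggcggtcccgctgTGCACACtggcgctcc
Mt2: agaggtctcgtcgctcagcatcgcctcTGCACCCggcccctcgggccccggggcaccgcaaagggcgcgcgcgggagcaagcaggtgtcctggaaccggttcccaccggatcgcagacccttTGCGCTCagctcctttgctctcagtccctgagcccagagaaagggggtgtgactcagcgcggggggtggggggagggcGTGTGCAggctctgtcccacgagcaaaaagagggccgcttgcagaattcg
Slc30a1: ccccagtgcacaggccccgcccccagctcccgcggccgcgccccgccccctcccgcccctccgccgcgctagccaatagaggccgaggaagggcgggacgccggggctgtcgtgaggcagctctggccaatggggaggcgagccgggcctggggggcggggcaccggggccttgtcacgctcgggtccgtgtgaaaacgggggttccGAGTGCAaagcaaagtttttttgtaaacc
Slc30a10: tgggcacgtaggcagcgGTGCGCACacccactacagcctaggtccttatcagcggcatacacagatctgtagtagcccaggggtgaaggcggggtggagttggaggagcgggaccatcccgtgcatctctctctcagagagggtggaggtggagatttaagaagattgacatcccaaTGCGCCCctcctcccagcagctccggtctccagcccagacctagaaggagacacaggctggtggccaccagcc

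A RefSeq window from 250 bases before to 50 bases after the start was found for 6 of the 8 members, all but Slc39a4 and Slc39a14. Within these 300 bases, Mt2 held 4 cores, Mt1 held 3, of which 1 lies before the RefSeq start, Slc30a10 held 3 and Slc30a1 held 2. Bases outside the windows were not searched, so the counts and the printed bases do not cover a whole promoter. The Mtf1 window held 0 cores, and Slc39a8 had 2 windows with 0 and 1. Among 32851 windows of the same length, 25.7% held at least 1 core, 7.11% at least 2, 1.97% at least 3 and 0.517% at least 4. A match of these letters is a description of the window and not evidence of binding.

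Mt1 (ENSMUSG00000031765, chr8:94179082-94180327) and Mt2 (ENSMUSG00000031762, chr8:94172664-94173568) lie next to each other in GRCm38 on the plus strand, each with 3 exons. Per kilobase of the principal transcript they were the most abundant of the 8 genes in controls, at 6794 ± 1129 and 5415 ± 721 normalized counts per kilobase (SD, n = 3), a difference smaller than the sum of their SDs. Slc39a14 followed at 787 ± 46.6, Slc30a1 at 173 ± 20, Slc39a4 at 149 ± 22.1, Slc39a8 at 107 ± 25.9, Slc30a10 at 85.0 ± 5.41 and Mtf1 at 38.2 ± 1.98 on the same scale. Slc30a1 and Slc39a4, Slc39a4 and Slc39a8, and Slc39a8 and Slc30a10 were neighbors that did not differ beyond their spread. Of the other genes of the metallothionein cluster, Mt3, the form of the brain, was at most 0.9 normalized counts in any library and Mt4, the form of squamous epithelia, was 0 in all 9.

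**Figure D1:**
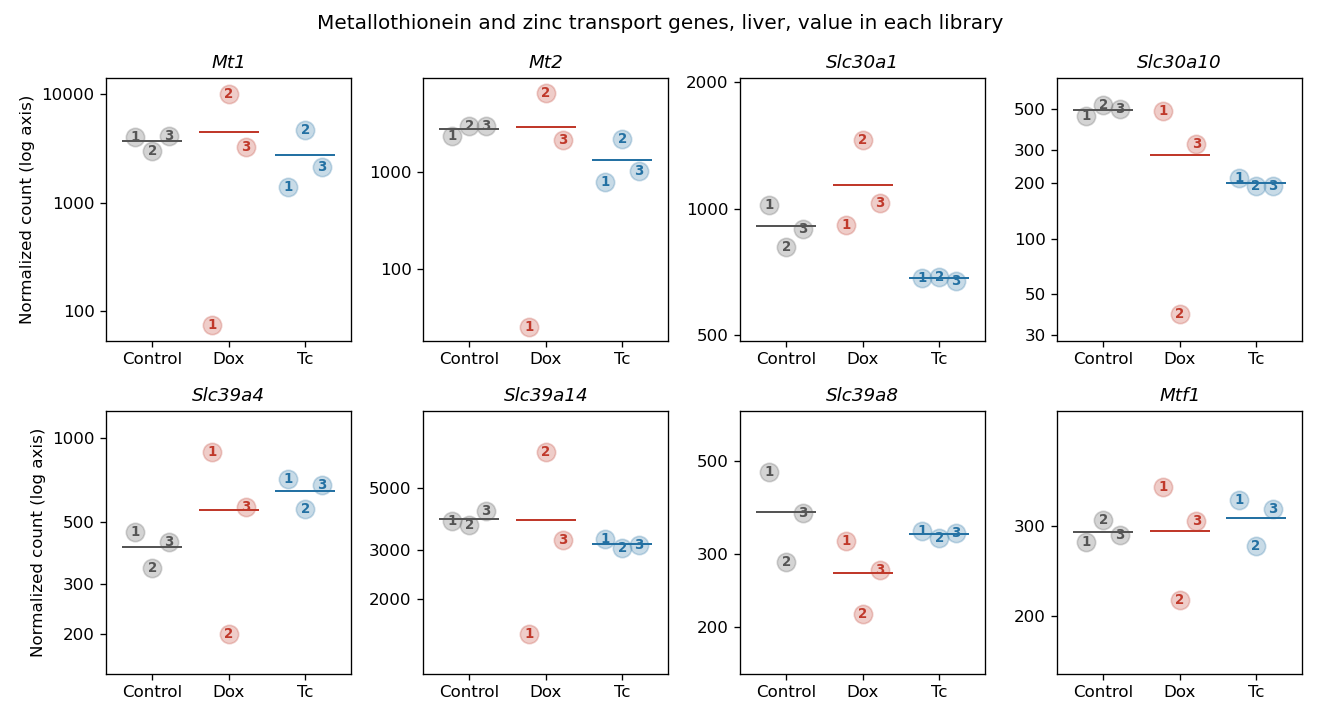
Normalized count of each of the 8 genes (y axis, log scale) in the control, Dox and Tc groups (x axis). Circles are libraries with their replicate number, and lines are group means. In Dox, library 1 is lowest and library 2 highest for Mt1, Mt2 and Slc39a14, and the order is the opposite for Slc30a10, Slc39a4, Slc39a8 and Mtf1.

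Neither Mt1 nor Mt2 passed the test in either drug, and the Dox libraries themselves spread by 134-fold or more. Mt1 was at 4032, 3017 and 4141 normalized counts in controls 1, 2 and 3, at 74.8, 10047 and 3303 in Dox 1, 2 and 3, and at 1393.5, 4692 and 2139 in Tc 1, 2 and 3. The lowest and the highest of the 9 values were both in the Dox group, which enclosed every control and every Tc value. Mt2 was at 2342.5, 2998 and 2961 in controls, at 25.3, 6629 and 2144 in Dox and at 788.0, 2218 and 1034 in Tc. All 3 Tc values of Mt2 were below all 3 control values, and the Dox values again lay on both sides of them. Dox library 1 rested on 71 reads for Mt1 and 24 for Mt2, and counting error alone gives exact Poisson 95% intervals of 58.4 to 94.3 and 16.2 to 37.6 normalized counts, so counting error is small beside the gap to the other libraries. Intervals of this kind cover counting error only.

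The gap between Dox libraries 1 and 2 was 134-fold for Mt1 and 262-fold for Mt2. By its size on the log2 scale it ranked 54 and 29 among 12100 genes, whose median gap in Dox was 1.62-fold. The Dox libraries differed widely in general, with 4264 genes (35.2%) more than 2-fold apart between libraries 1 and 2, against 586 in control and 1022 in Tc. In Tc, library 2 exceeded library 1 by 3.37-fold for Mt1 and 2.81-fold for Mt2, while in controls the ratio of the larger to the smaller of libraries 1 and 2 was 1.34 and 1.28. Mt1 and Mt2 together made up 578 to 677 normalized counts per 1000000 in controls, 10.0, 1952 and 599 in Dox 1, 2 and 3, and 219, 631 and 310 in Tc 1, 2 and 3. The ratio of Mt1 to Mt2 normalized counts was between 1.01 and 2.96 in the 9 libraries, the highest in Dox library 1, where both were low.

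**Figure D2:**
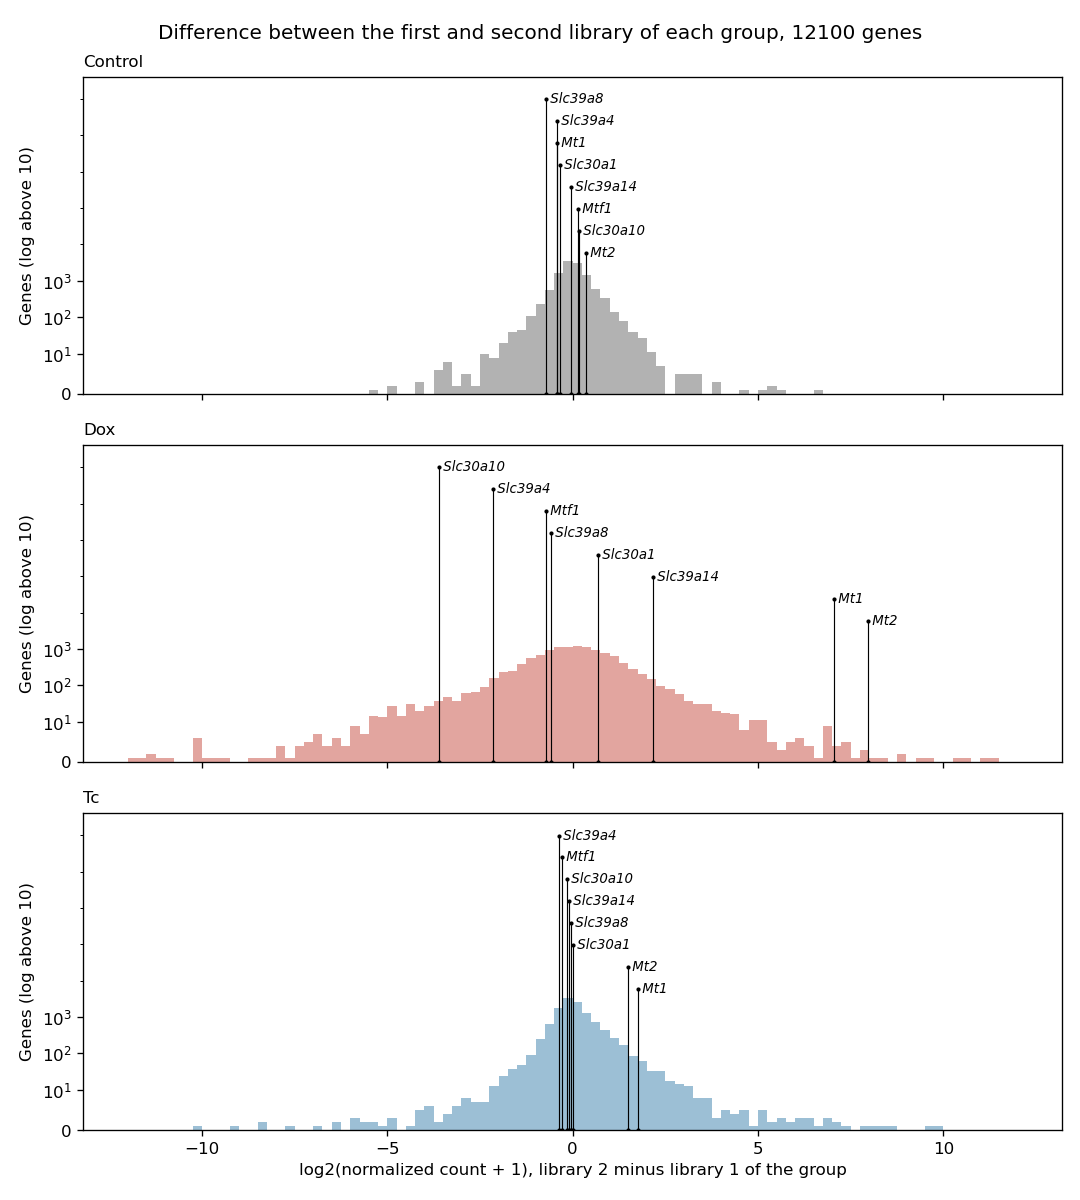
Difference in log2(normalized count + 1) between libraries 2 and 1 (x axis) for the 12100 tested genes in each group, as counts of genes per bin (y axis, linear to 10 and log above), with the 8 zinc genes marked by lines whose heights carry no value. In Dox, Mt1 at 7.05 and Mt2 at 7.98 lie in the far right tail and Slc30a10 at -3.61 in the left tail.

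With limma on log2(normalized count + 1), Mt1 was lower in Dox than in control by a log2 fold change of -1.44 (SE 1.5, adjusted p = 0.550) and Mt2 by -1.93 (SE 1.69, adjusted p = 0.472). In Tc the values were -0.62 for Mt1 (adjusted p = 0.920) and -1.17 for Mt2 (adjusted p = 0.850). None of these differences had an adjusted p below 0.05 in this fit, whose spread takes in all 3 groups. With only control and Tc libraries in the fit, the Tc difference of Mt2 had an SE of 0.34 and a limma adjusted p of 0.0823. On libraries 1 and 2 of those groups its limma adjusted p was 0.505. The sign in Dox depended on the scale, because the means of the normalized counts, 4475 ± 5088 for Mt1 and 2933 ± 3372 for Mt2 (SD, n = 3), were above the control means of 3730 ± 620 and 2767 ± 368, and DESeq2 on the recovered reads gave 0.26 and 0.078. Without Dox library 1 the log2 fold changes against control were 0.64 and 0.46, and without Dox library 2 they were -2.88 and -3.53.

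In bulk liver, fewer cells of a type and less RNA per cell cannot be told apart. Beside the metallothioneins, other lists differed between Dox libraries 1 and 2. Of 12 glucocorticoid-responsive genes, 11 were higher in Dox library 2, with a median log2 difference of 2.47. Their summed level was 60744 in Dox library 1 and 284642 in Dox library 2, against 99131 to 111969 in controls and 73692 to 115452 in Tc. Most of the Dox library 2 sum came from Tat, at 159364 against 13817 in Dox library 1, and Pck1, at 84318 against 29615. Tat is also one of the hepatocyte markers. Of 18 genes of the acute phase response to interleukin-6, 9 were higher in Dox library 2 (median 0.03), with sums of 183898 and 165985 in Dox 1 and 2, against 565996 to 614115 in controls and 272167 to 826775 in Tc. Kupffer cell and macrophage markers, 8 of 8, were higher in Dox library 2 (2020 against 7440 in sum), as were 5 of 5 tested neutrophil markers (5.3 against 139), where controls ranged from 7288 to 13690 and from 55.0 to 516, and Tc from 3538 to 6860 and from 15.6 to 126. Their part in the metallothionein levels was not tested.

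The exporter genes Slc30a1 and Slc30a10 were both lower in every Tc library than in every control library. Of all tested genes, 14.9% lay wholly lower in Tc in this way. Both genes overlapped between Dox and control. Of the 7 tested genes of the Slc30 exporter family, 5 had a positive log2 fold change in Tc, all but Slc30a1 and Slc30a10. The family median was 0.20, and the smallest of the 5 was 0.04, for Slc30a5. At an unadjusted limma p below 0.05, 0 of the 7 were higher and 0 were lower in Tc. Slc30a7 and Slc30a9 lay wholly higher in Tc than in control, as did 15.8% of all tested genes. Slc30a1 (ENSMUSG00000037434, chr1:191906767-191913247, plus strand, 2 exons) encodes ZnT1, the zinc exporter of the plasma membrane. It was at 1019, 811 and 892.5 normalized counts in controls, at 916, 1459 and 1035 in Dox and at 685.5, 690 and 675 in Tc. Every Tc value was below every control and every Dox value, and the 3 Tc values were within 1.02-fold of each other. Relative to control the log2 fold change was 0.30 (SE 0.18, adjusted p = 0.294) in Dox and -0.40 (SE 0.18, adjusted p = 0.435) in Tc, and neither passed the limma test. All 3 Dox libraries were above the control mean of 908 and all 3 Tc libraries below it.

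Slc30a10 (ENSMUSG00000026614, chr1:185454848-185468762, plus strand, 4 exons) encodes ZnT10, which in liver is known foremost as a manganese exporter. It was at 461.5, 524 and 502 normalized counts in controls, at 489, 39.1 and 325 in Dox and at 213, 191.5 and 192 in Tc. The Tc group lay wholly below the control group, at 199 ± 12.2 against 496 ± 31.6 (SD, n = 3), a 2.49-fold difference on the log scale, and Dox library 2 was 12.5-fold below Dox library 1. Dox library 1 lay within the control range, so the genes Mt1 and Slc30a10 had opposite orders in the Dox group.

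The test of Slc30a10 turned on Dox library 2. With all 9 libraries the Tc difference was -1.31 (SE 0.77, limma adjusted p = 0.568) and the Dox difference was -1.42 (SE 0.77, adjusted p = 0.255). With only control and Tc libraries in the fit the Tc difference had an SE of 0.0986 and an adjusted p of 9.58e-04, a call made for 2.28% of genes in that fit, and without Dox library 2 the adjusted p was 0.00355, with 1.83% of genes called. On libraries 1 and 2 alone the difference was -1.28 with an adjusted p of 1 by limma and by DESeq2, and in a fit of control and Tc libraries 1 and 2 only, a choice made after seeing the data, the adjusted p was 0.171. Slc30a10 thus had a difference of near-constant size in Tc, from -1.36 to -1.27 over all fits, whose call depended on which libraries set the spread.

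The importers had opposite orders within the Dox group. Slc39a14 (ENSMUSG00000022094, chr14:70303469-70351425, minus strand, 10 exons) encodes ZIP14, which takes up zinc, iron and manganese and is induced in inflammation. It was at 3816, 3682 and 4129 normalized counts in controls, at 1496, 6736 and 3258 in Dox and at 3278, 3040 and 3109 in Tc. The Tc values were all below the control values and close together, and the Dox values spread 4.50-fold around both groups. The log2 fold change was -0.27 (SE 0.44, adjusted p = 0.706) in Dox and -0.30 (SE 0.44, adjusted p = 0.852) in Tc.

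Slc39a4 (ENSMUSG00000063354, chr15:76612383-76617384, minus strand, 12 exons) encodes ZIP4, the importer that takes up dietary zinc in the intestine. It was at 461.5, 342 and 423 normalized counts in controls, at 889, 200.2 and 567.5 in Dox and at 712, 556 and 678 in Tc. The Tc group lay wholly above the control group, and Dox held both the highest and the lowest value, in libraries 1 and 2. The log2 fold change was 0.20 (SE 0.46, adjusted p = 0.799) in Dox and 0.67 (SE 0.46, adjusted p = 0.639) in Tc. With only control and Tc in the fit the latter had an adjusted p of 0.0358, and without Dox library 2 the Dox difference was 0.81 with an adjusted p of 0.0293, both short of a 2-fold difference. The 6 markers of intestinal epithelium summed to 960 in Dox library 1 and 309 in Dox library 2. They summed to 692 to 879 in controls and 957 to 1057 in Tc. Of these 6 markers only 2 passed the filter on low values, and none was at 0 in all libraries. Their part in the Slc39a4 level was not tested.

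Slc39a8 (ENSMUSG00000053897, chr3:135825279-135888572, plus strand, 9 exons) encodes ZIP8, an importer of zinc and manganese. It was at 470.0, 287 and 376 normalized counts in controls, at 321, 215 and 274.5 in Dox and at 341, 327 and 336 in Tc. The groups overlapped against control, and every Dox value was below every Tc value. The Dox difference was -0.47 (SE 0.21, unadjusted p = 0.0485, limma adjusted p = 0.169), the only one of the 8 with an unadjusted p below 0.05 against control in limma on all 9 libraries, and the Tc difference was -0.14 (SE 0.21, adjusted p = 0.848).

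Mtf1 (ENSMUSG00000028890, chr4:124802104-124849800, plus strand, 11 exons), the gene of the metal-responsive factor itself, had group means close to each other. It was at 278, 308 and 287 normalized counts in controls, at 357, 215 and 306 in Dox and at 336, 273 and 323 in Tc. The 3 group means, 291 ± 15.1, 293 ± 71.9 and 311 ± 32.9 (SD, n = 3), lay within the spread of the libraries. The log2 fold change was -0.02 (SE 0.19, adjusted p = 0.948) in Dox, a sign that turned to 0.15 when libraries were scaled to the same total, and 0.09 (SE 0.19, adjusted p = 0.908) in Tc.

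**Figure D3:**
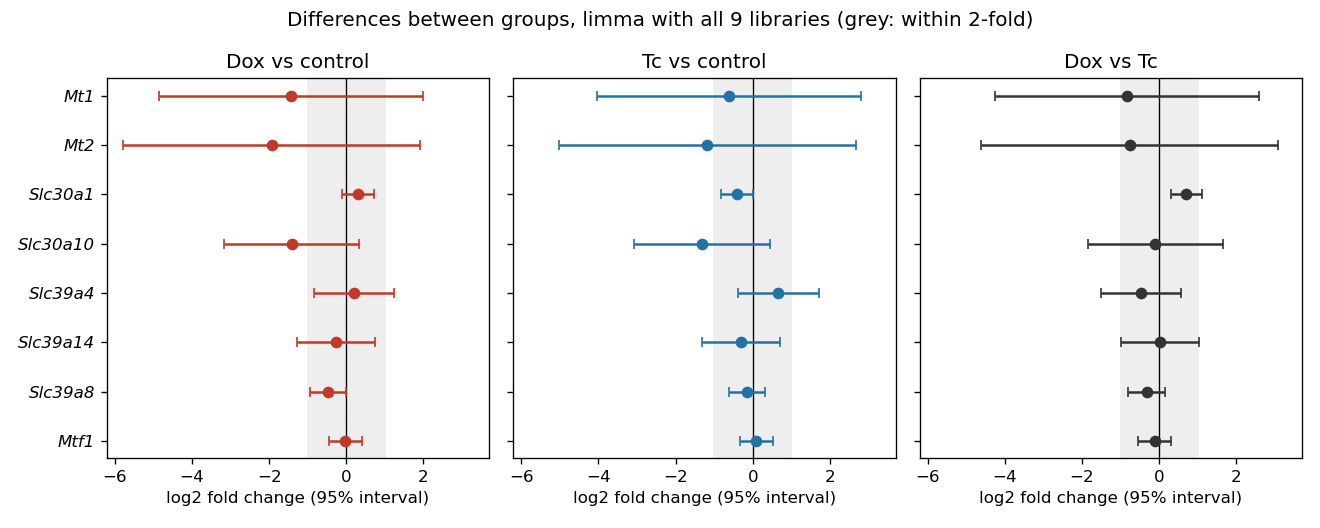
Log2 fold change (x axis) of each of the 8 genes (y axis) in Dox against control, Tc against control and Dox against Tc, from limma with all 9 libraries. Points are estimates, bars 95% intervals, and grey marks differences within 2-fold. The intervals of Mt1 and Mt2 are several log2 units wide in each comparison, and the Slc30a1 interval of Dox against Tc lies above 0.

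A gene was called changed where its fold change exceeded 2 and its adjusted p was below 0.05, the limits of the study. By that rule 0 of the 8 genes were called in Dox against control with limma, which called 5% of all tested genes, and 0 with DESeq2, which called 9.4%, or with edgeR. At an unadjusted p below 0.05, limma counted 1 of the 8, Slc39a8, against 29.1% of all genes. In Tc against control the count was 0 of 8 with limma (0.165% of all genes), with DESeq2 (1.56%) and with edgeR, and 0 of 8 at an unadjusted p below 0.05 with limma (11.7%). At that limit DESeq2 counted 2 of 8 in Tc, Slc30a10 and Slc30a1, and edgeR counted 1, Slc30a1. The limma fit to all 9 libraries takes its spread from the Dox libraries as well. With only control and Tc libraries in it, limma counted 5 of 8 (Slc39a14, Slc30a10, Mt2, Slc30a1 and Slc39a4). On libraries 1 and 2 of those groups it counted 2 of 8, Slc30a10 and Slc39a4. The share of all genes at that limit was not counted for these 2 fits, so neither count can be read as a result about the 8 genes. By the call rule, the limma fit of only control and Tc libraries called 2.28% of all genes, against 0.165% with all 9 libraries. On libraries 1 and 2 alone 0 of 8 were called in either comparison, by limma, which called 0% of all genes, or by DESeq2, which called 1.2% for Dox and 0.0744% for Tc. The comparisons share the control libraries.

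The groups separated more often in Tc than the counts from all 9 libraries show, without a test. In Tc against control, 5 of the 8 genes had no overlap between the groups: 4 were lower in Tc (Mt2, Slc30a1, Slc30a10 and Slc39a14), against 14.9% of all genes, and 1 was higher (Slc39a4), against 15.8%. In Dox against control all 8 overlapped, where 16.1% of all genes lay wholly higher in Dox and 17.1% wholly lower. The median log2 fold change of the 8 genes was -0.37 in Dox and -0.35 in Tc, with 6 of 8 negative in each, beside medians of 0.00 over all genes tested. The Dox value depended on the method, with a median of 0.037 by DESeq2, 0.029 by edgeR and 0.23 by DESeq2 on libraries 1 and 2, and 4, 4 and 3 of 8 negative.

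Dox and Tc differ in the place of a hydroxyl group on the same ring skeleton, and were given at the same 2 mg/mL and for the same 7 days, so the 8 genes were compared directly. Slc30a1 was higher in Dox than in Tc by a log2 fold change of 0.70 (SE 0.18, 95% interval 0.30 to 1.11), or 1.63-fold, with no overlap between the groups. Its unadjusted p was 0.00371 and its limma adjusted p over all 12100 genes was 0.116. DESeq2 gave 0.73 with an adjusted p of 0.0113, below the 2-fold limit, and 0.739 as adjusted p on libraries 1 and 2 alone. Adjusted p ranged from 0.0113 to 0.920 over all fits of this difference, and with limma on libraries 1 and 2 it was 0.755.

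For the other 7 genes the direct comparison was compatible with differences in both directions. The 95% interval of the log2 difference of Dox from Tc ran from -4.24 to 2.59 for Mt1 and from -4.60 to 3.09 for Mt2. It ran from -1.86 to 1.65 for Slc30a10, from -1.51 to 0.57 for Slc39a4 and from -0.98 to 1.04 for Slc39a14. Narrower intervals were found for Slc39a8, from -0.79 to 0.14, and Mtf1, from -0.54 to 0.32, so that for these a 2-fold difference in either direction lay outside the interval. By the call rule 0 of the 8 were called between the drugs with limma (0.215% of all genes), with DESeq2 (4.98%) and with edgeR, and 0 on libraries 1 and 2 with limma (0%) or DESeq2 (0.256%). Of the 8, 1 had an unadjusted limma p below 0.05, against 21.7% of all genes. Between the drugs 1 of 8 lay wholly higher in Dox (12.2% of all genes) and 1 wholly lower (12.4%). Without Dox library 2, Slc30a10 was called higher in Dox than in Tc, at 1.0 with an adjusted p of 0.0242, where 1.48% of all genes were called.

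The levels of several members varied together across the 9 libraries. The Pearson correlation of log2(normalized count + 1) was 0.99 between Mt1 and Mt2, 0.91 between Mt1 and Slc39a14, -0.73 between Mt1 and Slc39a4 and -0.77 between Mt1 and Mtf1. Without Dox 1 and Dox 2, the libraries farthest from the Mt1 median, these were 0.87, 0.34, -0.59 and -0.95 over 7 libraries, so the relation of Mt1 with Slc39a14 rested on those 2 libraries. The correlation of Mt1 with Slc30a10 was -0.44 and became 0.43 without them. Slc39a4 correlated at 0.88 with Mtf1 and at -0.88 with Slc39a14, and at 0.89 and -0.85 without its own 2 farthest libraries. These are descriptions over libraries that share group and, for libraries 3, may share RNA.

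**Figure D4:**
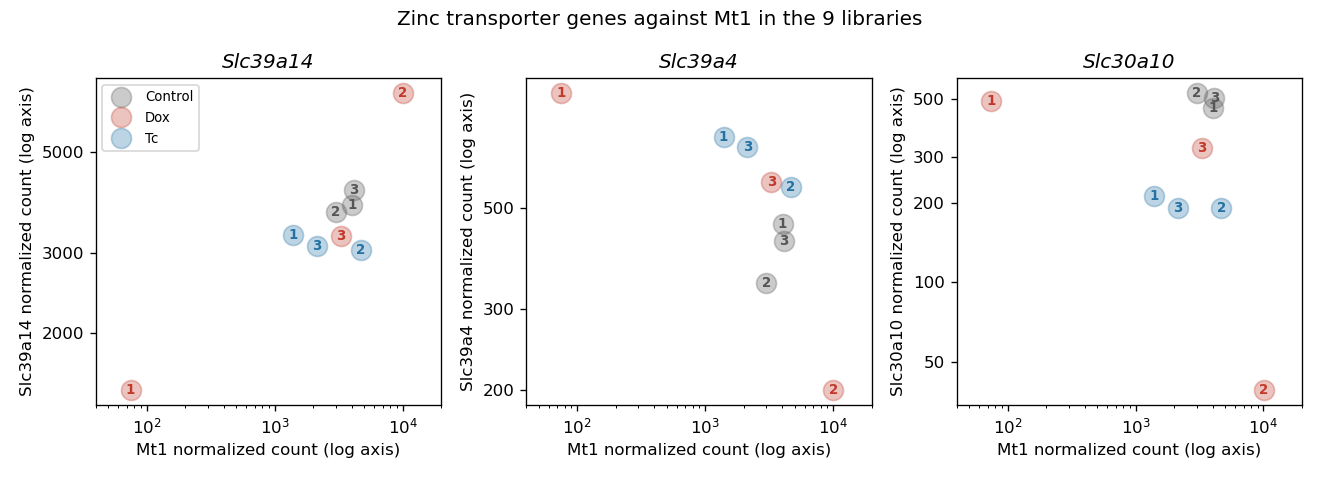
Normalized counts of Slc39a14, Slc39a4 and Slc30a10 (y axes, log scale) against Mt1 (x axis, log scale) in the 9 libraries, colored by group and numbered by replicate. Dox 1 and Dox 2 sit at the opposite ends of the Mt1 range, from 74.8 to 10047, and the other 7 libraries lie between them.

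Among 9379 genes averaging 50 or more normalized counts, the 5 most like Mt1 over the 9 libraries were Slc16a5 (r = 0.974), Slc16a6 (0.963), Nfxl1 (0.958), Arhgap23 (0.953) and Pla2g7 (0.951). The same 5 genes were the most like Mt2, at 0.949 to 0.968. Slc16a5, a gene of the monocarboxylate transporter family, was at 574, 259 and 440 in controls, at 39.0, 902 and 325 in Dox and at 169, 423 and 262 in Tc. Pla2g7, the phospholipase of platelet-activating factor, was at 165, 260 and 192 in controls, 16.8, 551 and 221 in Dox and 71.3, 175 and 104 in Tc. In both, as in Mt1, Dox 1 was the lowest and Dox 2 the highest of the 9 libraries.

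Of the 24 genes of the Slc30 and Slc39 families, 19 passed the filter on low values, and limma called 0 of them in any of the 3 comparisons. At an unadjusted p below 0.05, 1 was higher and 3 were lower in Dox than in control, 1 was higher in Tc than in control, and 1 was higher and 3 were lower in Dox than in Tc, where 29.1%, 11.7% and 21.7% of all genes tested passed that limit. The family counts were not above these shares. The median log2 fold change of the family genes was -0.10 in Dox and 0.04 in Tc. Slc39a1, which encodes the plasma membrane importer ZIP1, was at 1147, 1062.5 and 1114 in controls, 707, 604 and 626 in Dox and 783, 1096 and 987 in Tc. Its Dox difference was -0.78 (SE 0.15, limma adjusted p = 0.0189), which passed the p limit and not the 2-fold limit. Slc39a2, the gene of the importer ZIP2, was at 5.3, 8.8 and 10.2 in controls, 79.0, 2.3 and 33.4 in Dox and 50.8, 26.1 and 38.7 in Tc, with a Tc difference of 2.11 (SE 0.99, adjusted p = 0.463). All Tc values of Slc39a2 were above all control values, and in Dox library 1 was again high and library 2 low, as for Slc39a4.

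Of 6 further MTF1 target genes, Slc39a10 among them, 0 were called in any comparison. Their median log2 fold changes were -0.09 in Dox and 0.04 in Tc. The list does not state whether MTF1 raises or lowers each gene, so its median gives no direction of MTF1 action. The largest differences were 0.65 for Gclc, a gene of glutathione synthesis (SE 0.36, adjusted p = 0.267), in Dox and 0.62 for Selenoh (SE 0.24, adjusted p = 0.381) in Tc. Of 10 genes of manganese and iron transport, 1 fell in Dox, the metalloreductase gene Steap4, from 1982, 2574 and 2339 in controls to 1049, 559 and 757.5 (log2 fold change -1.58, SE 0.23, limma adjusted p = 0.0108). Of 12 zinc enzymes of the liver, 1 fell in Dox, Bhmt, the zinc enzyme that remethylates homocysteine (-1.93, SE 0.19, adjusted p = 0.00503), and 0 of 11 copper handling genes were called. With 5% of all genes called in Dox against control, 1 gene in a list of this size is near the background. In Tc and between the drugs 0 genes of these lists were called. On libraries 1 and 2 alone DESeq2 gave adjusted p-values of 4.52e-05 for Bhmt and 0.0601 for Steap4, and limma gave 0.559 for each.

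Genes of other known inducers of metallothioneins were counted in the same way, beside 0 of 2 tested metallothioneins called. Of 18 acute phase genes 9 fell in Dox, among them Saa1 (-7.24, SE 1.05, limma adjusted p = 0.0103) and Fga (-1.82, SE 0.47, adjusted p = 0.0491), and 0 were called in Tc. Of 11 tested genes of the NRF2 response to oxidants 5 rose in Dox, led by the glutathione transferase gene Gsta2 (4.14, SE 0.41, adjusted p = 0.00503), and 0 were called in Tc. Of the 12 glucocorticoid-responsive genes 0 were called in either group. Lcn2 stands in both the acute phase and the glucocorticoid list, and Gclc in both the MTF1 and the NRF2 list. Tat stands in both the glucocorticoid list and the hepatocyte markers. On libraries 1 and 2 alone limma called 0 of these genes, and DESeq2 gave adjusted p-values of 9.01e-06 for Saa1 and Gsta2 and 0.219 for Fga.

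Other cell types that express metallothioneins or ZIP4 were looked for by their markers. Of 6 markers of exocrine pancreas, Cpb1, Pnlip, Prss2 and Cpa1 were at 0 in every library, and the list summed to at most 7.9 normalized counts. The 6 lymphocyte markers summed to 14.7 to 61.0. Sums of 6 sinusoidal endothelial markers were 5582 to 5769.5 in controls, 2660 to 2777 in Dox and 4213 to 4998 in Tc, and those of 6 stellate cell markers 3470 to 3667, 2922 to 3382 and 3499 to 4134. Cholangiocyte markers summed to 148 to 376 and erythroid markers to 761.5 to 5971 over all libraries. The part of these cells in the levels of the zinc genes was not tested.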

How the data were processed

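Liver RNA of 3 groups of 3 libraries was sequenced as single-end reads from a directional kit. Per the submitters' notes and the study's methods, the authors trimmed reads with cutadapt, aligned them to mm10 with STAR 2.7.11ac, counted uniquely mapped reads per gene with HTSeq 2.0.5 and normalized them with DESeq2 1.42.0. The strand setting of the counting was not given in the sources used here, and reads shared by Mt1 and Mt2 would have been dropped. The deposited signal is a normalized count, that is, reads divided by a size factor per library. Whole reads were recovered for 100% of the values, within 0.01 of a whole number. Of 32285 identifiers 32158 had a symbol, and 0 columns were left unused.

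The values were tested as log2(normalized count + 1) with limma 3.58.1 (R 4.3.3, trend in the variance), 1 mean per group over all 9 libraries, on 12100 genes with a mean of at least 10, with Benjamini-Hochberg adjustment over all of them. A call needed a fold change over 2 and an adjusted p below 0.05. DESeq2 1.42.0 and edgeR 4.0.16 on the recovered reads, other pseudocounts (0.1 and 8), no filter, the same total per library, only the groups compared, libraries 1 and 2 only, a replicate block and each library left out were the alternatives. The scripts were tested on simulated data. The genes and lists were chosen with earlier results of these data known. Most genes named beside the 8 were drawn from those of each list that were called or had the 2 largest differences, and not all such genes are named. Slc30a7 was named because its Tc and control values did not overlap. The 5 genes most like Mt1 and Mt2 were named as well. Markers and lists covered zinc transporters, MTF1 targets, manganese and iron transport, copper handling, zinc enzymes, glucocorticoid, acute phase and NRF2 genes, and cell types. Transcript lengths came from GENCODE on GRCm38. Replicate numbers come from the labels: deviations from the group means correlated between Dox and Tc libraries of equal number (r = 0.287, 0.321 and 0.182), while control pairs did not (r = -0.081 to 0.055), and since libraries 3 are near sums of the others these are not independent.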

Additional observations from a re-analysis of the deposited data

Results flagged for a closer look

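Slc30a1, the gene of the zinc exporter ZnT1, stood out because all 3 Dox libraries were above the control mean and all 3 Tc libraries were below it. Dox library 1, at 916 against that mean of 908, lay within the control range of 811 to 1019. The difference of Dox from Tc was 0.70 on the log2 scale, with a limma adjusted p of 0.116, and neither drug differed from control past the threshold.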

How the results depend on the processing

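With all 9 libraries 0 of the 8 genes were called in each comparison, and the alternatives changed this in few cases. In Tc against control 1 gene (Slc30a10) and 2 zinc transporter family genes (Slc30a10 and Slc39a2) were called with only the 2 groups in the fit. In Dox against control 1 family gene was called without a filter on low values (Slc30a2) and 1 without the 2-fold limit (Slc39a1). Leaving out 1 library at a time gave 0 to 0 of the 8 genes in Dox, 0 to 1 in Tc and 0 to 1 between the drugs, and 0 to 1, 0 to 2 and 0 to 1 family genes. Whether equal numbers pair Dox and Tc libraries was not stated. The replicate block left 0 of the 8 called in each comparison and changed no other call of theirs. It gave 0.176 as the limma adjusted p of Slc30a1 between the drugs. Signs turned as follows, with the cause not tested. Dox against control became 0.26 (DESeq2), 0.25 (edgeR) and 0.53 (DESeq2 on libraries 1 and 2) for Mt1, 0.078, 0.065 and 0.32 for Mt2 and, for Slc39a14, 0.14 with the last of these. Dox against Tc became 0.71, 0.70 and 0.74 for Mt1, 1.12, 1.11 and 1.15 for Mt2, and 0.51, 0.52 and 0.38 for Slc30a10. Scaling to the same total moved the median of all genes by 0.17 in Dox against control and by 0.16 in Dox against Tc, and gave 0.15 and 0.064 for Mtf1 and 0.068 for Slc30a10 in Dox against Tc. With 1 library left out the range was -2.88 to 0.64 for Mt1, -3.53 to 0.46 for Mt2, -0.81 to 0.28 for Slc39a14, -0.27 to 0.81 for Slc39a4 and -0.18 to 0.18 for Mtf1 in Dox against control, -0.33 to 0.027 for Slc39a8 in Tc against control, and -2.27 to 1.26 for Mt1, -2.36 to 1.63 for Mt2, -0.80 to 1.0 for Slc30a10, -0.93 to 0.14 for Slc39a4, -0.51 to 0.58 for Slc39a14 and -0.27 to 0.10 for Mtf1 between the drugs. The fit of only 2 groups on libraries 1 and 2, added after seeing the data, called 0 of the 8.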
